A study of Mus musculus with 8 samples.

Results

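The CC chemokines described here are 10 genes, Ccl2, Ccl3, Ccl4, Ccl5, Ccl6, Ccl7, Ccl9, Ccl12, Ccl22 and Ccl24, taken by their symbols from a table of 25124 genes of the mouse. Each symbol matched 1 row. RNA was sequenced from osteoclast precursor (OCP) cells, which are macrophages grown from the marrow of mice of 6 to 8 weeks of age. All cells received macrophage colony-stimulating factor (M-CSF) at 30 ng/mL, which keeps macrophages alive and dividing. The study asked how PRDX1, an antioxidant enzyme given here from outside the cell, alters the early response to RANKL, the cytokine that turns these cells into bone-resorbing osteoclasts.

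The 4 groups of 2 libraries each were no PRDX1 + no RANKL (M-CSF alone), PRDX1 + no RANKL, no PRDX1 + RANKL, and PRDX1 + RANKL, all taken after 48 h. RANKL was used at 100 ng/mL and PRDX1 at 200 nM. The PRDX1 was a His-tagged protein made in Escherichia coli and passed over a resin that removes endotoxin; none of the 8 libraries is from cells given a control preparation without PRDX1, so effects of the protein and of anything left from its making cannot be told apart. The labels name C57BL/6 as the strain, whereas the study's culture methods name ICR mice. Nothing in the labels says that the 2 libraries of a group came from separate animals or cultures, so all p-values below measure the spread between these libraries, which may be technical.

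Levels are given in FPKM, the reads on a gene's exons scaled to transcript length in kilobases and to the size of the library, so that genes of different length can be compared. The libraries held 24542578 to 41712973 reads on genes, and within every group the 2 libraries differed beyond what read sampling alone gives. Of the 7 macrophage markers in the table, 7 were expressed, with Lyz2 highest at a mean of 12084 FPKM and Mertk lowest at 16.3 FPKM. Of the 8 osteoclast markers that passed the filter on low values (a mean of at least 0.5 FPKM over the 8 libraries), 8 were called higher by RANKL without PRDX1 and 6 by RANKL with PRDX1, where 11.8% and 4.52% of all genes tested were called higher. Oscar, one of the 8, passed this filter only through the libraries with RANKL alone. Cd3e and Ncr1, defining markers of T and NK cells, and Cpa3, Fcer1a and Ms4a2, those of mast cells and basophils, were listed at 0 in every library. Other genes of these marker lists had reads: the 7 markers of T and NK cells summed to 0.417 to 1.48 FPKM per library, most of it Cd4, which some macrophages also express. The 7 markers of eosinophils, basophils and mast cells summed to 0.078 to 0.991 FPKM, and Siglecf among them averaged 0.0945 FPKM with M-CSF alone, 0.587 with PRDX1, 0.228 with RANKL and 0.829 with both.

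CC chemokines are small secreted proteins that steer leukocytes along a gradient, and their name comes from a pair of adjacent cysteines near the start of the mature protein. They act through receptors coupled to G proteins: CCR2 brings monocytes out of the marrow and into inflamed tissue, CCR1 is found on monocytes, macrophages and osteoclast precursors, CCR4 on T cells, and CCR3 on eosinophils. Macrophages make many of them, and most are induced by bacterial products through Toll-like receptors and NF-κB.

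All members share the cysteine pair by definition, and the following lines give it in the coding sequence of each, with the 5 codons before it and the 8 after it. The reading frame was taken from the GENCODE transcript that matched each gene. Capitals mark the codons of the 2 cysteines.
Ccl2: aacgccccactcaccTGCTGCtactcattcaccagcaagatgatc
Ccl7: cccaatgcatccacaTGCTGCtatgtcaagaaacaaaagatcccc
Ccl12: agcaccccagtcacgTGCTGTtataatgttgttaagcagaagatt
Ccl3: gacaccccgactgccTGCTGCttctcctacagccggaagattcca
Ccl4: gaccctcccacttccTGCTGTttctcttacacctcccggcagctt
Ccl5: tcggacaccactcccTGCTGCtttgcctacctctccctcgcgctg
Ccl6: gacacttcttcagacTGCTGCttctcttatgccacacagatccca
Ccl9: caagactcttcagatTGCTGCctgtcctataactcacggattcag
Ccl22: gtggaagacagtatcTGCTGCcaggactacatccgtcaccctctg
Ccl24: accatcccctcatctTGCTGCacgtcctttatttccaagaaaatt
The pair was written TGCTGC in 8 members and TGCTGT in 2, Ccl4 and Ccl12. Over the whole coding sequence, counting gaps as differences, the most alike pair was Ccl3 and Ccl4, identical in 68.4% of aligned columns, followed by Ccl6 and Ccl9 with 64.6% and Ccl7 and Ccl12 with 63.5%. Over aligned bases alone, Ccl2 and Ccl7 came first with 72.4%, against 71.4% for Ccl3 and Ccl4. These likenesses bear on the counting, since reads of near-identical genes can be split between them. No stretch of 100 bases of a member's transcript, the length of 1 sequencing read, occurred in a transcript of another gene.

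The 10 genes spanned a wide range of levels (mean ± SD in FPKM, n = 2 libraries). In the no PRDX1 + no RANKL group Ccl9 stood at 347 ± 11.3 FPKM, Ccl2 at 296 ± 15.1 FPKM and Ccl6 at 206 ± 15.9 FPKM. Ccl7, Ccl4 and Ccl3 lay between 44.3 and 75.1 FPKM on average, and Ccl12 at 27.5 ± 2.95 FPKM. Ccl5 at 1.88 ± 0.112 FPKM, Ccl24 at 0.391 ± 0.00212 FPKM and Ccl22 at 0.0775 ± 0.00354 FPKM were near the bottom of the range. Of the 10 members, 9 passed the filter on low values and were tested, and Ccl24 did not.

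**Figure D1:**
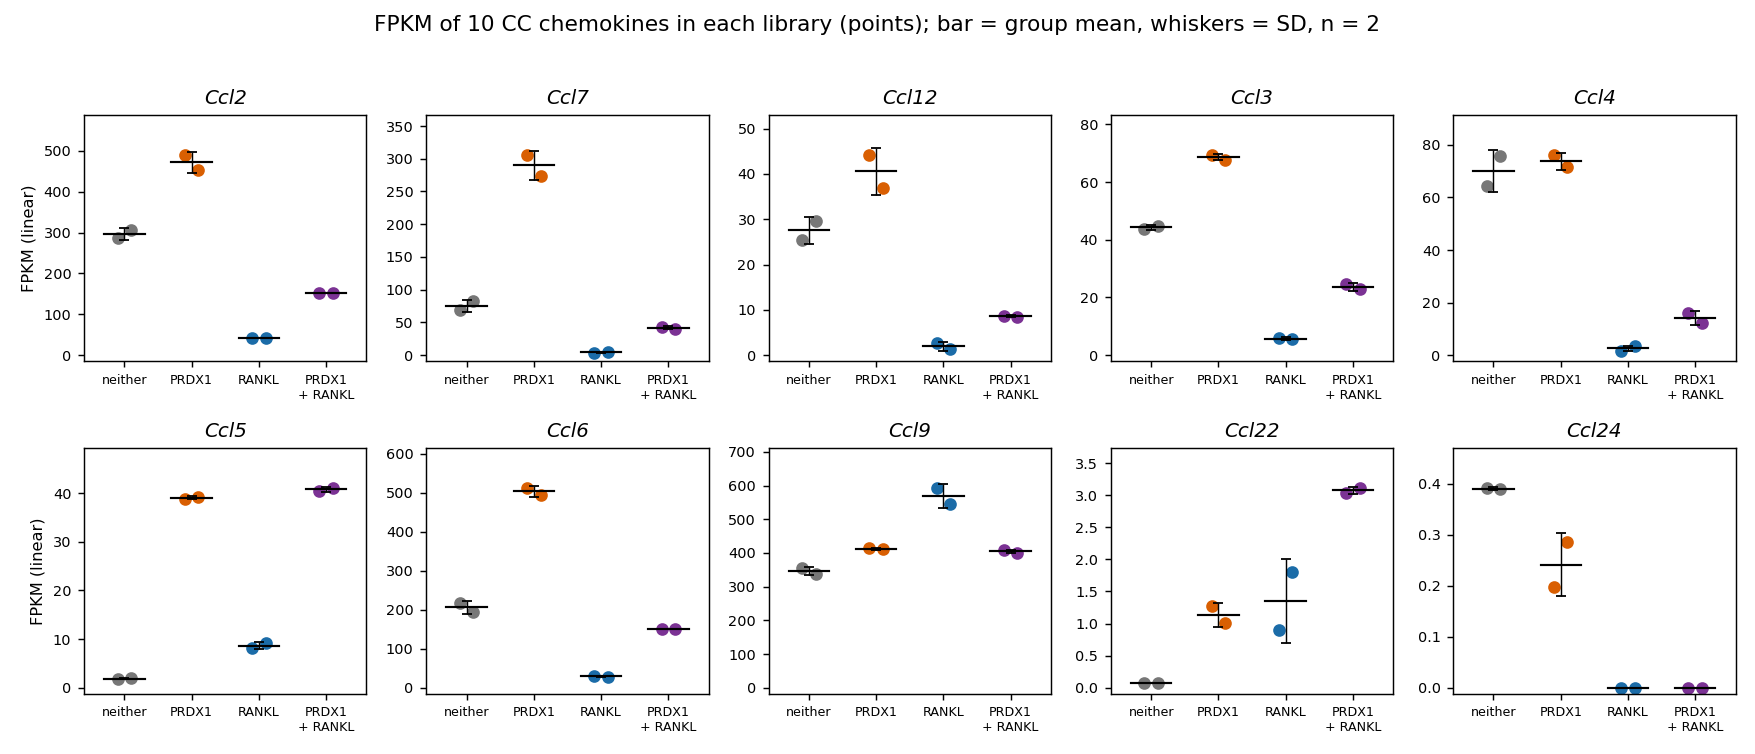
FPKM (linear axis, a separate scale for each gene) of the 10 CC chemokines in the 8 libraries; points are libraries, horizontal bars group means and whiskers the SD of 2 libraries. In 6 of the panels (Ccl2, Ccl7, Ccl12, Ccl3, Ccl4 and Ccl6) the lowest group is RANKL alone and the highest is PRDX1 alone, whereas Ccl5 is high in both PRDX1 groups, Ccl9 is highest with RANKL alone, Ccl22 is highest with both agents and Ccl24 has no reads with RANKL.

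Differences are given as log2 fold changes of FPKM + 1 from limma, with Benjamini-Hochberg adjustment over the 11700 genes tested; a gene was called where the adjusted p was under 0.05 and the change at least 1.5-fold. The added 1 makes these fold changes smaller than the ratio of the FPKM values for weakly expressed genes. In bulk RNA, fewer cells that make a chemokine and less of its RNA per cell cannot be told apart.

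PRDX1 without RANKL raised 6 of the 9 tested CC chemokines and lowered 0, where 5.79% of all genes tested were called in either direction, 3.8% higher and 1.99% lower. The 6 were Ccl2, Ccl3, Ccl5, Ccl6, Ccl7 and Ccl22. The median log2 fold change of the 9 was 0.67, against -0.04 over all genes tested.

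PRDX1 with RANKL raised 8 of the 9 and lowered 0, where 10.2% of all genes tested were called, 6.03% higher and 4.17% lower. These were all tested members other than Ccl9. The median log2 fold change of the 9 was 1.88, against -0.06 over all genes. PRDX1 was compared with no PRDX1 + no RANKL in the first case and with no PRDX1 + RANKL in the second.

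RANKL without PRDX1 lowered 6 of the 9, namely Ccl2, Ccl3, Ccl4, Ccl6, Ccl7 and Ccl12, and raised the other 3, Ccl5, Ccl9 and Ccl22. Here 21.8% of all genes tested were called, 11.8% higher and 9.96% lower. The median of the 9 was -2.76 on the log2 scale, against 0.10 over all genes.

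RANKL with PRDX1 lowered the same 6 by name (Ccl2, Ccl3, Ccl4, Ccl6, Ccl7 and Ccl12) and raised Ccl22, where 8.5% of all genes tested were called, 4.52% higher and 3.98% lower. Ccl5 and Ccl9 did not pass. The median was -1.63, against 0.07 over all genes. Between PRDX1 + RANKL and neither agent, 2 of the 9 were higher (Ccl5 and Ccl22) and 5 lower (Ccl2, Ccl3, Ccl4, Ccl7 and Ccl12), where 12.8% of all genes tested were called, 7.5% higher and 5.34% lower. These comparisons share groups of libraries with each other, so that the values of a gene in one are not independent of those in the next.

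**Figure D2:**
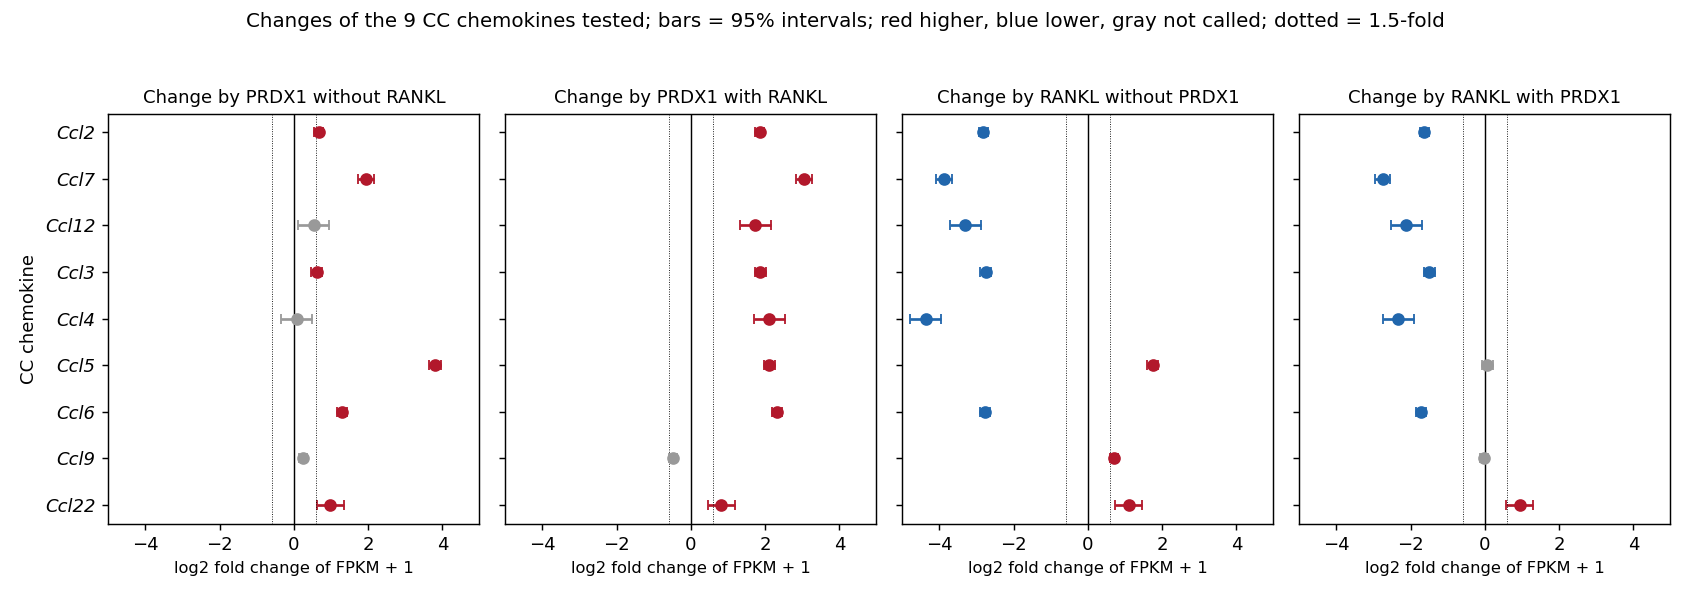
Log2 fold changes of FPKM + 1 (horizontal axis) of the 9 tested CC chemokines (vertical axis) in 4 comparisons, with 95% intervals; red points were called higher, blue lower and gray not called, and dotted lines mark 1.5-fold. With RANKL present, PRDX1 moved 8 genes to 0.82 or more while Ccl9 stood at -0.49; RANKL without PRDX1 moved 6 genes to -2.75 or below.

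Ccl2, Ccl7 and Ccl12 are the ligands of CCR2, the monocyte chemoattractant proteins; Ccl7 also binds CCR1 and CCR3, and Ccl12 is a mouse gene without a direct human counterpart. Ccl2, the main monocyte attractant of the group, read 286 and 307 FPKM with M-CSF alone, 489.9 and 454 with PRDX1, 41.3 and 41.0 with RANKL, and 151 and 152 with PRDX1 + RANKL. The 4 groups did not overlap, and the libraries with RANKL alone were the lowest. PRDX1 raised Ccl2 by 0.67 ± 0.0512 (SE) on the log2 scale without RANKL (adjusted p = 1.06e-05) and by 1.85 ± 0.0512 with RANKL (adjusted p = 7.86e-09). RANKL without PRDX1 left 13.9% of its mean FPKM. With both agents the mean was 51.1% of that with neither (log2 -0.96, adjusted p = 2.57e-07).

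Ccl7, which attracts monocytes and is needed for their exit from the marrow, read 68.3 and 82.0 FPKM with M-CSF alone, 306 and 274 with PRDX1, 3.88 and 4.48 with RANKL, and 43.6 and 40.3 with both. No 2 groups overlapped. PRDX1 raised it 3.86-fold in mean FPKM without RANKL (log2 1.94, adjusted p = 5.11e-07) and 10.0-fold with RANKL (log2 3.05, adjusted p = 1.24e-08). RANKL without PRDX1 lowered it 18.0-fold in mean FPKM, a log2 change of -3.87 (adjusted p = 4.79e-10). The ratio of Ccl7 to Ccl2 in FPKM, both per length, was 0.239 and 0.267 in the libraries with neither agent, 0.624 and 0.604 with PRDX1, 0.0939 and 0.109 with RANKL, and 0.289 and 0.266 with both. So Ccl7 moved further than its neighbour Ccl2 in each direction, and the ratio with both agents lay near that with neither.

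Ccl12 read 25.4 and 29.6 FPKM with M-CSF alone, 44.2 and 36.9 with PRDX1, 2.69 and 1.25 with RANKL, and 8.73 and 8.40 with both. The groups with and without PRDX1 did not overlap, yet without RANKL the change of 0.54 (95% interval 0.12 to 0.96) did not pass (adjusted p = 0.0539). With RANKL, PRDX1 raised Ccl12 by 1.73 ± 0.187 (adjusted p = 5.08e-05). RANKL lowered it by 3.30 on the log2 scale without PRDX1 (adjusted p = 1.99e-07) and by 2.11 with PRDX1 (adjusted p = 1.72e-05). With both agents it stood at 31.1% of the mean FPKM with neither (log2 -1.57, adjusted p = 8.36e-05).

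Ccl3, Ccl4 and Ccl5 are inflammatory chemokines that draw monocytes and T cells; Ccl3 and Ccl5 bind CCR1. Ccl3, also called MIP-1α and known to promote osteoclast formation in myeloma, read 43.6 and 44.9 FPKM with M-CSF alone, 69.4 and 67.8 with PRDX1, 6.07 and 5.42 with RANKL, and 24.7 and 22.8 with both. The order of the 4 groups was that of Ccl2, with no overlap. PRDX1 raised Ccl3 by 0.62 ± 0.0654 without RANKL (adjusted p = 8.57e-05) and by 1.88 ± 0.0654 with RANKL (adjusted p = 2.24e-08), and RANKL without PRDX1 lowered it by 2.75 (adjusted p = 4.45e-10).

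Ccl4, or MIP-1β, lies next to Ccl3 and was the one of the 9 tested members that RANKL without PRDX1 lowered furthest on the log2 scale. It read 64.4 and 75.7 FPKM with M-CSF alone, 76.1 and 71.5 with PRDX1, 1.74 and 3.31 with RANKL, and 15.8 and 12.2 with both. The PRDX1 and M-CSF libraries overlapped, and the change of 0.08 (95% interval -0.34 to 0.49, adjusted p = 0.796) did not pass. Under RANKL, in contrast, PRDX1 raised Ccl4 by 2.12 ± 0.185 (adjusted p = 1.19e-05). RANKL without PRDX1 left 3.6% of the mean FPKM of Ccl4, a log2 change of -4.37 (adjusted p = 2.40e-08), and with both agents 19.98% of the level with neither was present. The ratio of Ccl4 to Ccl3 in FPKM was 1.48 and 1.69 with neither agent, 1.10 and 1.05 with PRDX1, 0.286 and 0.611 with RANKL, and 0.641 and 0.535 with both, so that Ccl4 was the more abundant of the pair per length in the libraries without RANKL and the less abundant in those with it.

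Ccl5, or RANTES, a chemoattractant of T cells and monocytes, had another pattern. It read 1.80 and 1.96 FPKM with M-CSF alone, 38.9 and 39.3 with PRDX1, 8.22 and 9.13 with RANKL, and 40.4 and 41.1 with both. The libraries with PRDX1 lay in a narrow band whether RANKL was present or not. RANKL added to PRDX1 changed Ccl5 by 0.06 (95% interval -0.09 to 0.21, adjusted p = 0.518), whereas RANKL without PRDX1 raised it 4.62-fold in mean FPKM (log2 1.75, adjusted p = 1.17e-08). PRDX1 raised it 20.8-fold without RANKL (log2 3.80, adjusted p = 1.30e-09) and 4.69-fold with RANKL (log2 2.11, adjusted p = 1.33e-08). The low starting level rested on 28 and 43 reads in the 2 M-CSF libraries, with exact 95% Poisson intervals of 1.19 to 2.60 and 1.42 to 2.64 FPKM; these intervals cover counting error only.

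Ccl6 and Ccl9 are ligands of CCR1 and, unlike the other members, have 4 exons in place of 3; Ccl9, also called MIP-1γ, is known as a chemokine that osteoclasts make and respond to. Ccl6 read 217 and 195 FPKM with M-CSF alone, 513 and 494 with PRDX1, 30.7 and 28.3 with RANKL, and 151 and 151 with both. It followed the order of Ccl2, and the 4 groups did not overlap. PRDX1 raised Ccl6 2.44-fold without RANKL (log2 1.29, adjusted p = 3.89e-07) and 5.12-fold with RANKL (log2 2.32, adjusted p = 5.60e-09), and RANKL without PRDX1 left 14.3% of its mean FPKM (log2 -2.76, adjusted p = 2.36e-10). With both agents the mean of Ccl6 was 73.3% of that with neither, a log2 change of -0.44 that had an adjusted p of 1.95e-04 but stayed under 1.5-fold.

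Ccl9 read 355 and 339 FPKM with M-CSF alone, 415 and 411 with PRDX1, 593 and 544 with RANKL, and 408 and 401 with both. Of the 9 tested members it varied least over the 8 libraries, and it was the one whose highest group was RANKL alone. RANKL without PRDX1 raised it by 0.71 ± 0.0485 (adjusted p = 8.00e-07). PRDX1 changed it by 0.25 without RANKL (adjusted p = 0.00354) and by -0.49 with RANKL (adjusted p = 2.80e-05), both under 1.5-fold, and RANKL added to PRDX1 changed it by -0.03 (95% interval -0.14 to 0.08, adjusted p = 0.654). In contrast to Ccl6, its neighbour 9.25 kb away, Ccl9 rose with RANKL in the absence of PRDX1 where Ccl6 fell. The ratio of Ccl9 to Ccl6 in FPKM was 1.63 and 1.74 with neither agent, 0.810 and 0.831 with PRDX1, 19.3 and 19.2 with RANKL, and 2.71 and 2.65 with both.

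Ccl22, a ligand of CCR4 made by dendritic cells and some macrophages, was scarce. It read 0.075 and 0.080 FPKM with M-CSF alone, 1.27 and 1.004 with PRDX1, 0.893 and 1.81 with RANKL, and 3.03 and 3.12 with both. Each agent alone raised it, by 0.99 ± 0.165 for PRDX1 (adjusted p = 0.00157) and by 1.10 ± 0.165 for RANKL (adjusted p = 2.36e-04), and the groups of the single agents overlapped. With both agents the log2 change from neither was 1.92 (adjusted p = 8.20e-06), and the ratio of the mean FPKM was 39.7, with only 4 and 6 reads in the M-CSF libraries. PRDX1 raised Ccl22 under RANKL by 0.82 ± 0.165 (adjusted p = 0.00271); without no PRDX1 + RANKL replicate 1, the lower of that group, the change was 0.54, which is under 1.5-fold.

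Ccl24, an eosinophil attractant that acts through CCR3, was at or under 0.392 FPKM throughout. It read 0.392 and 0.389 FPKM with M-CSF alone, from 15 and 21 reads, and 0.198 and 0.285 with PRDX1, from 8 and 13 reads, and had 0 reads in the 4 libraries with RANKL. With a floor of 3 reads over the group, Ccl24 was at least 10.4-fold lower with RANKL than with M-CSF alone, and at least 9.16-fold lower with PRDX1 + RANKL than with PRDX1. Without the filter on low values, limma gave a change by RANKL of -0.48 on the log2(FPKM + 1) scale (adjusted p = 1.14e-04), which is under 1.5-fold on that scale.

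For the 9 members that passed the filter, the groups were put in the order of their means. Each step between neighbours was then read from the test of that pair in the same libraries, so the order itself was not tested. Ccl2, Ccl3 and Ccl7 ran from PRDX1 alone over M-CSF alone and PRDX1 + RANKL to RANKL alone, with every step called. For Ccl4 and Ccl12 the order was the same, but the top step, PRDX1 alone over M-CSF alone, did not pass. Ccl6 had this order too, and the step from M-CSF alone (206 FPKM) to PRDX1 + RANKL (151 FPKM) stayed under 1.5-fold. For Ccl5 the libraries with PRDX1 + RANKL lay slightly above those with PRDX1 alone without overlap, but this step did not pass the test, and RANKL alone stood above M-CSF alone. Ccl22 ran from PRDX1 + RANKL over RANKL alone and PRDX1 alone to M-CSF alone, and its middle step did not pass. None of the 3 steps of Ccl9 between neighbours reached 1.5-fold, though RANKL alone lay above M-CSF alone. Between RANKL alone and PRDX1 alone, 25.1% of all genes tested were called, and 7 of the 9 tested members were called lower with RANKL, Ccl9 (log2 0.46, adjusted p = 1.68e-05) and Ccl22 (log2 0.11, adjusted p = 0.568) being the exceptions.

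The effect of PRDX1 itself depended on RANKL in most members. The difference between the change by PRDX1 with RANKL and that without it (the interaction) was called in 8 of 9 members, 6 with a higher and 2 with a lower value under RANKL, where 8.85% of all genes tested were called, 4.5% higher and 4.35% lower. Of the 8, Ccl12 (1.19) lost its call without the filter on low values (adjusted p = 0.0648). The interaction was 2.04 ± 0.262 for Ccl4 (adjusted p = 4.01e-04) and between 1.03 and 1.25 for Ccl2, Ccl3, Ccl6, Ccl7 and Ccl12. It was -1.69 ± 0.0950 for Ccl5 (adjusted p = 2.25e-06) and -0.74 ± 0.0686 for Ccl9 (adjusted p = 5.12e-05). For Ccl22 the interaction of -0.16 (95% interval -0.68 to 0.35, adjusted p = 0.677) did not pass with 1 added to FPKM, while with 0.1 added it was -1.59 (adjusted p = 0.0236) and with voom on the reads -2.52 (adjusted p = 0.0019).

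The composition of the family changed along with its total. Summed over the 10 genes, the level was 1068 ± 9.56 FPKM with M-CSF alone, 1902 ± 73.0 with PRDX1, 664 ± 35.5 with RANKL and 839 ± 9.75 with both (SD, n = 2). Ccl9 made up 32.5% ± 1.35 of the sum with M-CSF alone, 21.7% ± 0.670 with PRDX1, 85.7% ± 0.697 with RANKL and 48.2% ± 0.0244 with both. Without Ccl9 the sums were 722 ± 20.8, 1489 ± 69.9, 95.1 ± 0.466 and 435 ± 5.26 FPKM in the same order. Thus the FPKM sum was lowest with RANKL alone both with and without Ccl9. As a share of the reads on genes, which is not scaled to length, the order was another one, with 0.192% and 0.187% in the libraries with M-CSF alone, 0.303% and 0.291% with PRDX1, 0.208% and 0.191% with RANKL, and 0.183% and 0.180% with both. For these sums over members no test was run, and an exact permutation test of 2 against 2 libraries could not go below p = 0.333.

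**Figure D3:**
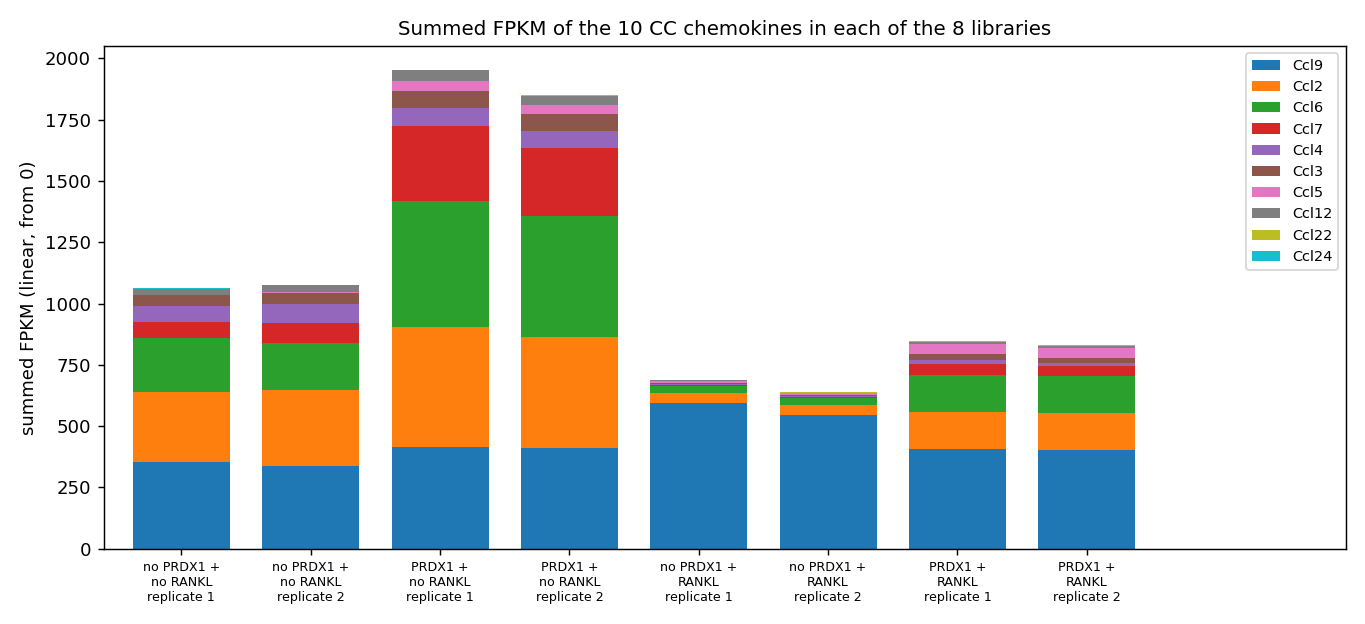
Summed FPKM of the 10 CC chemokines (vertical axis, linear from 0) in each of the 8 libraries, divided by gene. The bars reach 1061.7 and 1075 with neither agent, 1953 and 1850.0 with PRDX1, 689 and 639 with RANKL, and 846 and 832 with both; the bottom segment, Ccl9, is the tallest one with RANKL alone.

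By position, 8 of the 10 genes lay on chromosome 11 of mm10 in 2 clusters. The first held Ccl2 (82035577 to 82037452, plus strand), Ccl7 (82045712 to 82047523, plus) and Ccl12 (82101845 to 82103399, plus), with Ccl11, the eosinophil attractant eotaxin, between Ccl7 and Ccl12. The second began 1422 kb and 36 annotated genes further on and held Ccl5 (83525779 to 83530518, minus), Ccl9 (83572917 to 83578636, minus), Ccl6 (83587886 to 83593087, minus), Ccl3 (83647843 to 83649378, minus) and Ccl4 (83662584 to 83664683, plus). Ccl22 was on chromosome 8 (94745684 to 94751388, plus) and Ccl24 on chromosome 5 (135569935 to 135573049, minus). None of the 10 shared exon bases with another annotated gene, which matters here because reads were counted on both strands.

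Neighbours did not always move together. The 3 genes of the first cluster all fell with RANKL, and Ccl11, which lies among them, was listed at 0 in every library. In the second cluster Ccl5 and Ccl9, at one end, rose with RANKL without PRDX1, while Ccl6, Ccl3 and Ccl4 fell.

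**Figure D4:**
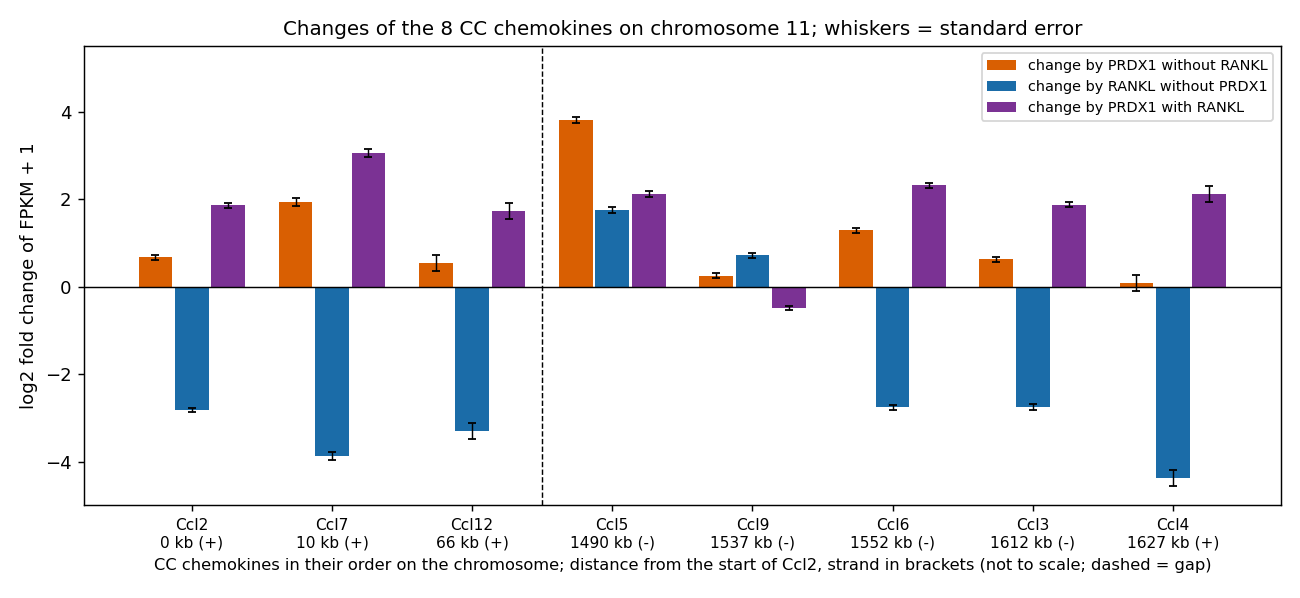
Log2 fold changes of FPKM + 1 (vertical axis, whiskers are standard errors) of the 8 CC chemokines on chromosome 11, in their order on the chromosome with the distance from the start of Ccl2; the dashed line marks the gap between the clusters. Blue bars (RANKL without PRDX1) point up in Ccl5 and Ccl9, at 1.75 and 0.71, and down in the other 6 genes.

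Ccl9 and Ccl6 are adjacent, alike in sequence and opposite in their change with RANKL when PRDX1 was absent, so the start regions of this pair are shown. RefSeq promoters (GRCm38.p6, 250 bases before to 50 after the start) were given for 5 of the 10 members, namely Ccl3, Ccl6, Ccl9, Ccl12 and Ccl22. Below are the 100 bases before and the 30 after the start of each gene, on the minus strand, Ccl9 at chr11:83578607-83578736 and Ccl6 at chr11:83593058-83593187. Capitals mark the best local alignment of the pair only, and other stretches that may also align were left in lower case. In the full promoters this alignment ran over 74 columns with 78.4% identical, from -18 to 49 in Ccl9 and from -59 to 15 in Ccl6, counted from the start site.
Ccl9: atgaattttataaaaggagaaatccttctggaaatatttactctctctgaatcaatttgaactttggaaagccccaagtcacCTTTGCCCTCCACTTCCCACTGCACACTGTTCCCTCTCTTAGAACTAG
Ccl6: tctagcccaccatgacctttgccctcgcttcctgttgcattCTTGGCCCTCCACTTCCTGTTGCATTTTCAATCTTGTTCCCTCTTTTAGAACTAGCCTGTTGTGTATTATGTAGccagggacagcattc
The part in capitals thus lay further upstream of the start in Ccl6 than in Ccl9. Both strands of the 5 promoters were searched for the NF-κB consensus, the AP-1 motif TGANTCA, the consensus of the interferon-stimulated response element (ISRE), and TATAAA. Ccl9 held an NF-κB match beginning at -35 and an AP-1 match at -53, both in the lower-case stretch shown, and TATAAA at -92, with 2 more matches on the other strand at -94 and -224. Ccl12 held TATAAA at -31, and no other match was found in these windows. Of all 32851 RefSeq promoters, 8.46% held the NF-κB consensus, 7.81% the AP-1 motif, 3.44% the ISRE and 13.6% TATAAA. A match of letters is a description and says nothing of whether a factor binds there.

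Genes whose pattern over the 8 libraries lay nearest to that of each member were found by the Euclidean distance of log2(FPKM + 1), centred on each gene's mean, among the 11700 genes tested. Ccl2 and Ccl3 were each other's nearest gene of all, at a distance of 0.213. Outside the family the nearest to both was S1pr1, a receptor for sphingosine 1-phosphate, at 0.360 from Ccl2 and 0.315 from Ccl3; its mean FPKM was 43.5, 58.3, 5.33 and 22.2 in the order neither, PRDX1, RANKL and both. Wfdc17 was next to Ccl2, and Mgst1, a microsomal glutathione transferase, next to Ccl3.

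Ccl6 lay nearest to Rgs1, a brake on G protein signalling from chemokine receptors, at 0.518, then to Atf3, a stress-induced transcription factor, and Wfdc17. Ccl7 lay nearest to Ch25h, which makes 25-hydroxycholesterol, at 1.64, then to Rgs1, the member Ccl6 and the Fc receptor gene Fcgr1. Ccl12 lay nearest to the scavenger receptor gene Cd36, at 0.699, followed by Ch25h and C1qa. Ccl4 lay nearest to Slc40a1, the iron exporter ferroportin, at 0.726, followed by the complement gene C1qb and Ch25h. Slc40a1 had means of 59.0 and 47.4 FPKM without RANKL, 1.18 with RANKL alone and 10.0 with both.

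Ccl5 lay nearest to Saa3, a serum amyloid A gene, at 0.951, then to the complement factor gene Cfb and to Acod1, which makes itaconate. Ccl22 lay nearest to Tmem26, at 0.386, then to Ptk2, the focal adhesion kinase gene, and Zmynd15. For Ccl9 the nearest were Fam136a, Rmnd1 and Hsd3b7, at 0.194 to 0.211; a gene with no variation at all would have been at 0.738 from Ccl9, so that these small distances partly reflect how little it varied. The nearest members to Ccl5 and Ccl9, both being Ccl22, ranked 75 and 10884 among all genes tested.

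Of the other 14 CC chemokines in the table, 2 passed the filter, Ccl25 with group means of 1.29 to 1.89 FPKM and Ccl27a with 0.33 to 1.04 FPKM, and 7 were listed at 0 in every library, namely Ccl1, Ccl11, Ccl19, Ccl26 and the near-identical genes of the Ccl21 family. Neither of the 2 was called in a PRDX1 comparison, though 1 was for PRDX1 without RANKL when no PRDX1 + no RANKL replicate 1 was left out. Ccl25, an attractant of the thymus and intestine, changed by 0.15 without RANKL (adjusted p = 0.496) and by -0.19 with RANKL (adjusted p = 0.350), and Ccl27a, a skin chemokine, by 0.44 (adjusted p = 0.0665) and -0.02 (adjusted p = 0.930). RANKL with PRDX1 lowered Ccl27a by 0.62 (adjusted p = 0.0119), but Ccl27a passed the filter only through the libraries with PRDX1 alone, the higher side of this comparison, and the count of 1 became 0 without PRDX1 + no RANKL replicate 1 or without PRDX1 + RANKL replicate 2.

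The receptors did not all move one way. Of 14 CC chemokine receptor genes examined, decoy receptors included, 6 passed the filter; PRDX1 raised 4 and lowered 0 without RANKL, and raised 2 and lowered 1 with RANKL. Of the 4, Ccr9 passed the filter only through the libraries with PRDX1 alone, the higher side of that comparison. Of all genes tested, PRDX1 raised 3.8% and lowered 1.99% without RANKL, and raised 6.03% and lowered 4.17% with RANKL. Ccr2, the receptor of Ccl2, Ccl7 and Ccl12, read 53.9 and 49.7 FPKM with M-CSF alone, 62.4 and 66.1 with PRDX1, 36.1 and 31.7 with RANKL, and 47.9 and 46.3 with both. Its changes by PRDX1 were 0.31 (adjusted p = 0.00874) and 0.46 (adjusted p = 4.62e-04), both under 1.5-fold, and RANKL without PRDX1 lowered it by 0.60 (adjusted p = 3.95e-05).

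Ccr1, the receptor of Ccl6 and Ccl9, read 30.0 and 24.0 FPKM with M-CSF alone, 65.3 and 63.7 with PRDX1, 56.0 and 49.3 with RANKL, and 37.5 and 36.6 with both. Each agent alone raised it, PRDX1 by 1.24 (adjusted p = 9.95e-06) and RANKL by 0.94 (adjusted p = 1.23e-05), and their combination stood below either; the interaction was -1.73 (adjusted p = 1.61e-05). Ccr3, the receptor of Ccl24 and one of those of Ccl5 and Ccl7, had the same shape at a lower level, with 1.11 ± 0.0226 FPKM with M-CSF alone, 7.12 ± 0.635 with PRDX1, 3.05 ± 0.0375 with RANKL and 1.66 ± 0.206 with both. PRDX1 raised Ccr3 by 1.94 without RANKL (adjusted p = 5.62e-07) and lowered it by 0.61 with RANKL (adjusted p = 6.11e-04).

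Ccr7, the receptor that guides mature dendritic cells to lymph nodes, rose with PRDX1 by 0.91 without RANKL (adjusted p = 2.03e-04) and, in its presence, by 0.99 (adjusted p = 6.22e-05), from 0.06 to 0.997 FPKM and from 0.681 to 2.34 FPKM. Ccrl2, an atypical receptor, was raised by PRDX1 by 1.04 in the presence of RANKL (adjusted p = 1.65e-04). PRDX1 raised Ccr9 by 0.59 without RANKL (adjusted p = 0.00482), and its level stayed under 1 FPKM. Ccr4, the receptor of Ccl22, had 2 reads in 1 library and 0 in the other 7.

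**Figure D5:**
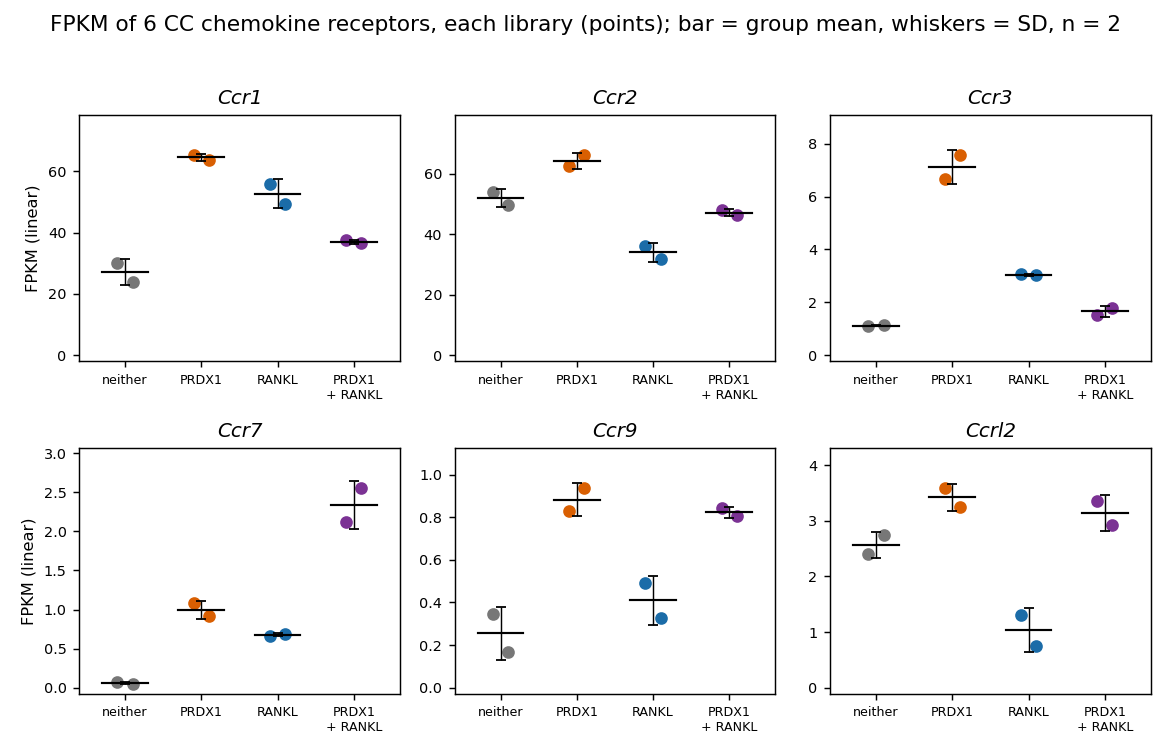
FPKM (linear axis, a separate scale for each gene) of the 6 CC chemokine receptor genes described; points are libraries, horizontal bars group means and whiskers the SD of 2 libraries. Ccr1 and Ccr3 are higher with either agent alone than with neither, and lower with both than with either; Ccr2 is lowest with RANKL alone.

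Genes upstream and downstream of the chemokines are read against the same shares of all genes tested. Of 22 tested genes of signal transduction below the receptors, PRDX1 raised 1 and lowered 0 without RANKL, and raised 1 and lowered 1 with RANKL, and the first count became 2 without no PRDX1 + no RANKL replicate 2. Of all genes tested, PRDX1 raised 3.8% and lowered 1.99% without RANKL, and raised 6.03% and lowered 4.17% with RANKL. The counts of the 22 thus lay near the background. Rgs1 rose by 1.23 (adjusted p = 1.16e-05) and 2.78 (adjusted p = 2.02e-08), from 37.1 to 88.4 FPKM and from 3.89 to 32.4 FPKM. Grk3, a kinase that shuts off activated receptors, fell by 1.04 under RANKL (adjusted p = 1.52e-06).

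Of 30 tested genes of the route from TLR4 to NF-κB, PRDX1 raised 2 without RANKL, Nfkbia by 1.10 (adjusted p = 8.56e-07) and Tnfaip3 by 0.98 (adjusted p = 1.62e-05), both feedback inhibitors of NF-κB. With RANKL it raised 3, namely Cd14, the co-receptor for lipopolysaccharide, by 1.14 (adjusted p = 2.02e-08), Nfkbiz by 0.99 (adjusted p = 3.00e-05), and Irak3, a brake on the pathway, by 0.69 (adjusted p = 2.96e-05). It lowered 0 of the 30 in either comparison. Of all genes tested, 5.79% and 10.2% were called in these comparisons, so that the counts of 2 and 3 of the 30 lay near the background.

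Of 12 tested genes that cleave chemokines or regulate the stability of their mRNA, PRDX1 raised 5 without RANKL, against 3.8% of all genes tested, and with RANKL raised 1 and lowered 2, against 6.03% and 4.17%. Mmp12, a macrophage protease that trims CC chemokines, rose by 2.03 (adjusted p = 9.40e-08) and 2.52 (adjusted p = 1.22e-08). Mmp14 rose by 2.96 without RANKL (adjusted p = 1.99e-08) and fell by 1.09 with RANKL (adjusted p = 4.66e-06), and Mmp9, which is also an osteoclast marker, fell by 3.43 with RANKL (adjusted p = 1.01e-08). Zc3h12a, an endonuclease that degrades inflammatory mRNA, rose by 0.92 without RANKL (adjusted p = 4.74e-05). The remaining 2 of the 5 were proteases of neutrophil granules, Elane at 0.83 (adjusted p = 0.0214) and Ctsg at 0.63 (adjusted p = 0.00368). Ctsg passed the filter on low values only through the libraries with PRDX1 alone, in which it was high. Elane passed it only through the libraries with PRDX1, with or without RANKL, and is also among the neutrophil markers described next.

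Markers of other cells moved along with some of these changes. The summed level of 9 markers of neutrophils and their precursors was 8.62 to 12.8 FPKM with M-CSF alone, 40.2 to 44.4 with PRDX1, 16.4 to 17.3 with RANKL and 35.3 to 38.9 with both; of the 6 that passed the filter, PRDX1 raised 5 without RANKL and 4 with RANKL, where it raised 3.8% and 6.03% of all genes tested. Of the 5, Elane and Prtn3 averaged under 0.5 FPKM in both groups without PRDX1 and passed the filter only through the libraries with PRDX1. S100a8, also made by macrophages, was the highest of the 9 at a mean of 11.9 FPKM over the libraries, and Ly6g, which defines neutrophils, the lowest at 0.113 FPKM. The 9 markers of mature dendritic cells summed to 9.94 to 10.7 FPKM with M-CSF alone, 10.7 to 11.7 with PRDX1, 4.81 to 5.18 with RANKL and 10.6 to 11.1 with both, and PRDX1 raised 2 of 5 tested in each comparison. These 2 were Fscn1 and Ccr7, and Ccr7 was also counted among the receptors above. Cd83, the highest of the 9 on average, had means of 6.76, 4.39, 0.91 and 1.62 FPKM in the same order. Its change by PRDX1 without RANKL was -0.52 (adjusted p = 0.00166), under 1.5-fold. RANKL without PRDX1 raised 2 of the 5 and lowered 2, where 11.8% and 9.96% of all genes tested were called higher and lower. The 8 markers of stromal cells and osteoblasts summed to 7.74 to 10.4, 16.5 to 16.5, 7.50 to 9.54 and 15.5 to 19.1 FPKM in the same order, and PRDX1 raised 2 of 3 tested in each of the 2 PRDX1 comparisons. The 5 B cell markers summed to 0.589 to 0.976, 1.59 to 2.13, 0.631 to 0.922 and 1.37 to 1.61 FPKM, and none passed the filter. The 5 endothelial markers summed to 1.491 to 1.494, 2.48 to 2.72, 3.52 to 3.81 and 4.87 to 5.39 FPKM, and the 1 that passed was not called for PRDX1. The part of these cells in the chemokine levels was not tested.

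Markers of the cultured cells moved as well. The 7 macrophage markers summed to 15264 to 17017 FPKM with M-CSF alone, 16145 to 16602 with PRDX1, 9710.1 to 10132 with RANKL and 13101 to 13494 with both; RANKL without PRDX1 lowered 5 of the 7, against 9.96% of all genes tested, and PRDX1 raised 3 of 7 with RANKL, against 6.03%, and 0 without it. The 9 osteoclast markers summed to 34.4 to 35.3, 80.4 to 84.8, 1834 to 1931 and 235 to 243 FPKM in the same order, and PRDX1 lowered 8 of the 8 tested under RANKL, against 4.17% of all genes; Oscar among them passed the filter only through the libraries with RANKL alone, the higher side of this comparison. Without RANKL, PRDX1 raised 3 of the 8 tested osteoclast markers and lowered 1, against 3.8% and 1.99% of all genes tested. Single genes weighed heavily in these sums. Lyz2 averaged 14117, 14048, 8597 and 11576 FPKM in the same order, and Acp5 23.6, 53.7, 1105 and 162 FPKM. The part of the macrophage and osteoclast markers in the fall of Ccl2, Ccl3, Ccl4, Ccl6, Ccl7 and Ccl12 under RANKL was not tested.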

How the data were processed

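The 8 RNA-seq libraries (100 bp paired-end) of OCP cells, 2 per group, were grouped by their labels. The submitters' processing notes name HISAT2, HOMER, DESeq2 and mm10. The authors deposited FPKM per RefSeq gene, counted by HOMER on exons of both strands with 1 transcript kept per gene. FPKM times transcript length was a whole multiple of 1 unit per library within 0.1 read for 100% of the values checked, which gave back reads and library totals of 27284663 to 46171847. No column of other samples was present (0). Since the deposited values are not counts, log2(FPKM + 1) was fitted for 11700 genes, those averaging 0.5 FPKM or more over all libraries, with limma 3.58.1 (R 4.3.3) in 1 model of 4 groups with an intensity trend, 4 residual degrees of freedom. The steps were tested on simulated data. Calls needed a Benjamini-Hochberg adjusted p under 0.05 and 1.5-fold. Comparisons of PRDX1 + RANKL with neither, and of the single agents, were added after the data were seen. Alternatives were a pseudocount of 0.1, no filter, quantile and upper quartile scaling, a replicate block, the compared groups alone, leaving out each library, and voom on the reads.

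The members and lists were chosen with earlier results of these data known. Named were all members, receptors and other CC chemokines that passed this filter, up to 5 called genes in each other list, the 3 nearest genes of each member, and the highest and lowest marker of a list. A receptor gene is not reported here. Ccr4, Ctsg, Cd4, Siglecf, Oscar, Prtn3, Fscn1 and genes listed at 0 were named after their values were seen. Coding sequences came from GENCODE transcripts of GRCm38, aligned with Biopython 1.88, and promoters from RefSeq. Floors were 3 reads; floors and intervals cover counting error only.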

Additional observations from a re-analysis of the deposited data

Results flagged for a closer look

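The change by PRDX1 differed with the presence of RANKL, by a test of the difference itself (the interaction in limma, log2 scale), in 8 of the 9 CC chemokines tested. Of all genes tested, 8.85% were called for the interaction, 4.5% higher and 4.35% lower. The interaction of Ccl12 lost its call without the filter on low values (adjusted p = 0.0648). The change was larger with RANKL by 2.04 for Ccl4, 1.25 for Ccl3, 1.19 for Ccl12, 1.18 for Ccl2, 1.12 for Ccl7 and 1.03 for Ccl6. The log2 change was smaller with RANKL by 1.69 for Ccl5 (difference of -1.69), whose level with PRDX1 averaged 39.1 FPKM without and 40.7 FPKM with RANKL. It was lower for Ccl9 (difference of -0.74), where the change by PRDX1 was 0.25 without RANKL and -0.49 with it. Both changes of Ccl9 stayed under 1.5-fold and were not called. These values rest on 2 libraries per group, and the part of the changes in macrophage and osteoclast markers in them was not tested.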

How the results depend on the processing

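Over 15 alternatives, 912 of 918 log2 fold changes of single chemokines kept their direction and their side of the threshold or moved within their error, and the counts of called members and called genes all stayed within 1.5 times (148 values). Of the others, the interaction of Ccl12 lost its call with no filter (1.19, adjusted p = 0.0648), where more genes were tested. Ccl22, the member with the fewest reads of those tested, gave the rest: its change by PRDX1 with RANKL fell under 1.5-fold without no PRDX1 + RANKL replicate 1 (0.54, adjusted p = 0.0106), its interaction passed with a pseudocount of 0.1 (-1.59) and with voom (-2.52) and was 0.12 without no PRDX1 + RANKL replicate 2, and its difference between the single agents became -0.17 without that library. Correlations of the deviations of libraries with the same number were 0.00847 to 0.0965, so the numbers were not taken to pair the samples. With the replicate block, 6 members were called for PRDX1 without RANKL, 8 with RANKL, 9 for RANKL without PRDX1, 7 with PRDX1 and 8 for the interaction, as without it. The genes called, in the same order, were 676, 1192, 2551, 994 and 1042 of the 11700 tested. Depth limits Ccl22 and Ccl24 most.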
